A study of Mus musculus with 6 samples.

Results

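Elastic fibre genes were examined in mouse colon tumor cells with and without a peptide inhibitor of the Group I Paks. The 10 genes, taken by name, were elastin (Eln), 2 fibrillins (Fbn1 and Fbn2), 5 fibulins (Fbln1, Fbln2, Fbln5, Efemp1 and Efemp2) and 2 microfibril-associated glycoproteins (Mfap2 and Mfap5). All 10 were found among the 21966 genes of the table. Elastic fibres give tissues their recoil. A core of cross-linked elastin is laid down on microfibrils of fibrillin, with fibulins bridging the components and lysyl oxidases joining elastin molecules. In the gut wall these proteins come mainly from fibroblasts, smooth muscle and vessels, and fibulins are also found in basement membranes under epithelia.

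RNA-seq compared PID+ cells, which express the Pak inhibitor domain, with PID- cells, which do not. According to the methods, both were primary cultures of colon tumors. The mice of the PID+ group had the genotype CDX2P-NLS-Cre;APCΔ/+;ROSA26-PID, and those of the PID- group CDX2P-NLS-Cre;APCΔ/+. Both groups thus carried the Cre transgene and 1 deleted Apc allele, and the Cre acts in intestinal epithelium, mostly of the large bowel. The labels name 3 mice per group, numbered 4, 7 and 26 for PID+ and 1, 2 and 3 for PID-. They call the PID- samples normal and untreated, although these also came from tumors, and their numbers are not those that the methods give to PID- cells. The methods speak of replicated sequencing runs instead of mice, and the age at which tumors were taken for culture is not given in the sources used here. The Cre and Apc lines were C57BL6/J. The PID allele, carried by the PID+ group alone, was made in embryonic stem cells whose strain the methods do not name. The 3 sets of reads of a group were merged, so each gene has 1 pooled FPKM (fragments normalised to transcript length and sequencing depth) per condition. No difference below has a replicate check, and the intervals given are the deposited ones, which cover the error model of the quantification only. Values marked treated in the table were read as PID+, and those marked untreated as PID-. The PID transgene has no value of its own there, so this reading could not be checked.

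Several epithelial markers, keratins above all, were abundant in both conditions. Summed over 10 markers, FPKM reached 9085 in PID+ cells, against 4991 in PID- cells. The 3 keratins Krt8, Krt18 and Krt19 supplied 8057 and 4592 of these sums. The most abundant was Krt18 in PID+ (2843) and Krt19 in PID- cells (2073). Against the label of colon epithelium, the microvillus gene Vil1 was near 0, at 0.175 in PID+ and 0.0614 in PID- cells. The intestinal transcription factor Cdx2 was at 0.542 FPKM in PID+ cells, against 8.04 in PID- cells, and the intestinal cadherin Cdh17 at 1.67, against 25.9. Krt20, a keratin of differentiated gut epithelium, was at 158 FPKM in PID+ cells, against 73.5 in PID- cells. On the scale used throughout, (FPKM in PID+ + 1)/(FPKM in PID- + 1), 2 of the 10 markers were at least 3-fold higher in PID+ cells (Epcam and Cldn7, neither of them with FPKM scaled to equal Gapdh, nor Epcam with equal total FPKM) and 2 were at least 3-fold lower (Cdx2 and Cdh17). Beside these counts, 1.04% of all genes reached 3-fold upward and 1.72% downward. Where an FPKM of 2 was reached in one of the conditions, as by 9 of these markers, the shares were 2.08% and 3.42%. Among the 10 markers, the deposited intervals lay apart for Cdh17 alone. Epcam, Cldn7, Cdx2, Cdh17 and Krt20 were named after their values were seen.

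Fibulins made up nearly the whole elastic fibre signal. The 10 genes together had 265 FPKM in PID+ cells, against 315 in PID- cells. Fbln2, a long fibulin of basement membranes and elastic fibres, accounted for 86.7% of this sum in PID+ and 88.4% in PID- cells. In both conditions the lower bound of Fbln2 (53.1 in PID+, 68.3 in PID-) lay above the upper bound of each of the other 9 genes. The next gene, Efemp2, had upper bounds of 36.4 and 54.8. Without Fbln2, the remaining 9 genes had a sum of 35.3 in PID+ cells, against 36.5 in PID- cells. Without Efemp1 as well, the sum of the other 8 was 20.6 in PID+ cells, against 36.2.

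**Figure D1:**
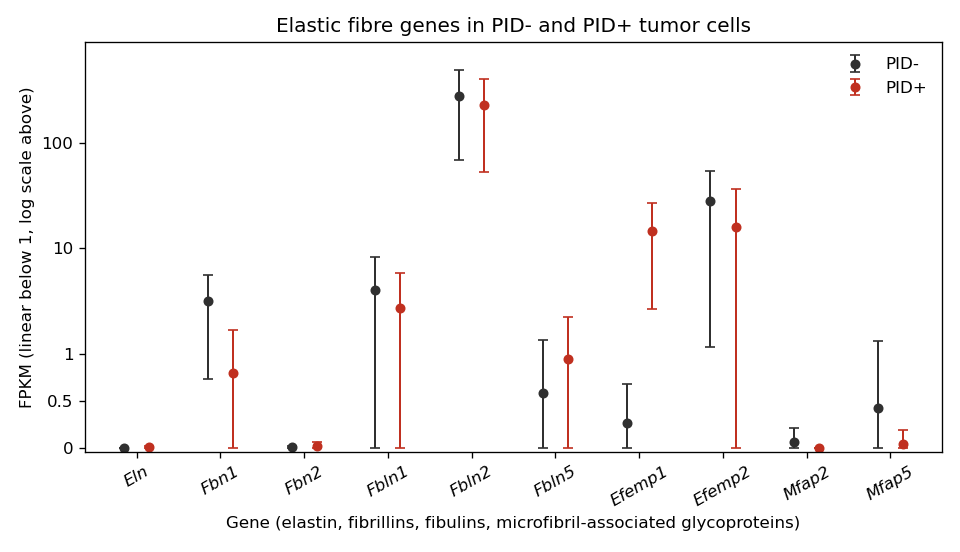
FPKM of the 10 elastic fibre genes in PID- (black) and PID+ cells (red), 1 pooled value per condition, on an axis that is linear below 1 and logarithmic above. Bars are the deposited confidence intervals, which lie apart for Efemp1 alone (14.8 in PID+ and 0.26 in PID-).

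A single member passed the 3-fold threshold, and it was higher in PID+ cells. This was Efemp1, so 1 of 10 genes was at least 3-fold higher, against 229 of all 21959 usable genes (1.04%), and 0 of 10 were at least 3-fold lower, against 377 genes (1.72%). The pseudocount keeps genes with little RNA under the threshold. Only genes that reach an FPKM of 2 in one of the conditions can pass it. Among these 11035 genes the shares were 2.08% higher and 3.42% lower, and 5 of the 10 members were in this range. With counts this small the shares say little about the members as a group. Over the 10 members the median log2 change was -0.18, beside 0.00 for all genes. By the deposited intervals, Efemp1 was again the single member whose conditions lay apart, where 41 genes (0.187%) were apart and higher and 119 (0.542%) apart and lower.

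Elastin, the core of the fibre, did not rise above the floor of detection in either condition. Eln (ENSMUSG00000029675.9, chr5:134702593-134747323 of GRCm38, the build of all positions here) had an FPKM of 0.0061 in PID+ cells, worth about 1.5 reads, and was listed at 0 in PID- cells. Both values are at or under 3 estimated reads, the floor used here, so no fold is given. Each of the other families below had a gene above this floor in both conditions, although Fbn2, Mfap2 and Mfap5 were very low. RNA for elastin was not detectable above the floor at this depth.

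The fibrillins, which polymerise into the microfibril scaffold and bind latent TGF-β complexes, differed widely in level. Fbn1 (ENSMUSG00000027204.10, chr2:125300594-125507993) was at 0.793 FPKM in PID+ (interval 0 to 1.67) against 3.16 in PID- cells (0.736 to 5.59). The value was lower in PID+ cells, with a log2 change of -1.22, but the intervals overlapped and the 3-fold threshold was not reached. It was reached with a pseudocount of 0.1 (log2 change -1.87), a setting under which 2 of 10 members, Fbn1 and Mfap5, were at least 3-fold lower against 3.62% of all genes, and 1 of 10 at least 3-fold higher against 2.83%. In bulk RNA, fewer cells of a type and less RNA per cell cannot be told apart, for Fbn1 or any other gene. Fbn2 (ENSMUSG00000024598.8, chr18:58008623-58210487), a fibrillin best known from development, was close to 0 in both, at 0.0185 FPKM in PID+ cells, against 0.0051 in PID- cells. About 13.6 and 5.2 reads stood behind these values.

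Of the long fibulins, Fbln2 (ENSMUSG00000064080.9, chr6:91212455-91272540) was at 230 FPKM in PID+ (53.1 to 406) against 279 in PID- cells (68.3 to 489). This matrix gene stood at percentile 98.6 of all genes in PID+ cells, against percentile 98.9 in PID- cells. The log2 change was -0.28, and the intervals overlapped. Fbln1 (ENSMUSG00000006369.11, chr15:85205949-85286535), a fibulin that binds fibronectin and laminin networks, was at 2.72 FPKM in PID+ (0 to 5.84) against 4.02 in PID- cells (0 to 8.32). Both long fibulins had somewhat lower values in PID+ cells, and neither difference exceeded its deposited error.

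The short fibulins, which bind elastin or its cross-linking enzymes, included the 1 member past the threshold. Efemp1 (fibulin-3; ENSMUSG00000020467.12, chr11:28853204-28926743) is a secreted glycoprotein that is known to bind the metalloproteinase inhibitor Timp3. Its FPKM was 14.8 in PID+ cells (2.69 to 26.8), against 0.26 in PID- cells (0 to 0.68). The 2 intervals did not overlap. The log2 change was 3.65 on the FPKM + 1 scale, a 12.5-fold difference, and the plain ratio of FPKM was 56.9. The larger ratio rests on a PID- value of about 45.1 estimated reads, above the floor, against 1863 reads in PID+ cells. Between the nearest bounds of the intervals the log2 change would be 1.13, which is under 3-fold. Among all 21959 genes, 5 had a larger log2 change, giving Efemp1 rank 6, or rank 12 with a pseudocount of 0.1.

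Efemp2 (fibulin-4; ENSMUSG00000024909.11, chr19:5473954-5482517), which tethers lysyl oxidase to tropoelastin during fibre assembly, was at 16.1 FPKM in PID+ (0 to 36.4) against 27.98 in PID- cells (1.15 to 54.8). The log2 change of -0.76 lay within overlapping intervals. The library kit does not mark strand, and the 3′ end of Efemp2 overlaps Mus81 on the other strand (10.8 FPKM in PID+ and 9.93 in PID-), so reads from the overlap cannot be assigned by strand. Fbln5 (ENSMUSG00000021186.8, chr12:101746565-101819055), a fibulin that binds elastin and integrins, was at 0.943 FPKM in PID+ (0 to 2.25) against 0.586 in PID- cells (0 to 1.34).

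Ratios between members within a condition do not depend on library scaling. Efemp1 stood at 0.92 of the FPKM of Efemp2 in PID+ cells, where their intervals overlapped widely, and at 0.0093 of it in PID- cells. The ratio of Efemp1 to Fbln2 was 0.0643 in PID+ and 0.00093 in PID- cells. Of 3 other ratios calculated, Fbln1 to Fbln2 was 0.0118 in PID+ and 0.0144 in PID- cells, and Fbln2 to Efemp2 was 14.3 and 9.96. Fbn1 to Fbln2 was 0.00345 in PID+ cells, against 0.0114 in PID- cells. In the order of levels Efemp1 took place 7 of 10 in PID- cells, below Mfap5 (0.424) and Fbln5 (0.586) with overlapping intervals, and place 3 in PID+ cells, next to Efemp2.

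The microfibril-associated glycoproteins, small proteins that decorate fibrillin microfibrils, had very low values. Mfap5 (ENSMUSG00000030116.11, chr6:122505845-122529290) was at 0.0371 FPKM in PID+ (0 to 0.186) against 0.424 in PID- cells (0 to 1.32). About 5.8 and 91.6 reads stood behind these values, and the log2 change was -0.46, or -1.93 with a pseudocount of 0.1. Mfap2 (ENSMUSG00000060572.14, chr4:141010418-141015984) was listed at 0 in PID+ cells and had an FPKM of 0.0602 in PID- cells, about 5.0 reads. Neither gene reached an FPKM of 1 in either condition.

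**Figure D2:**
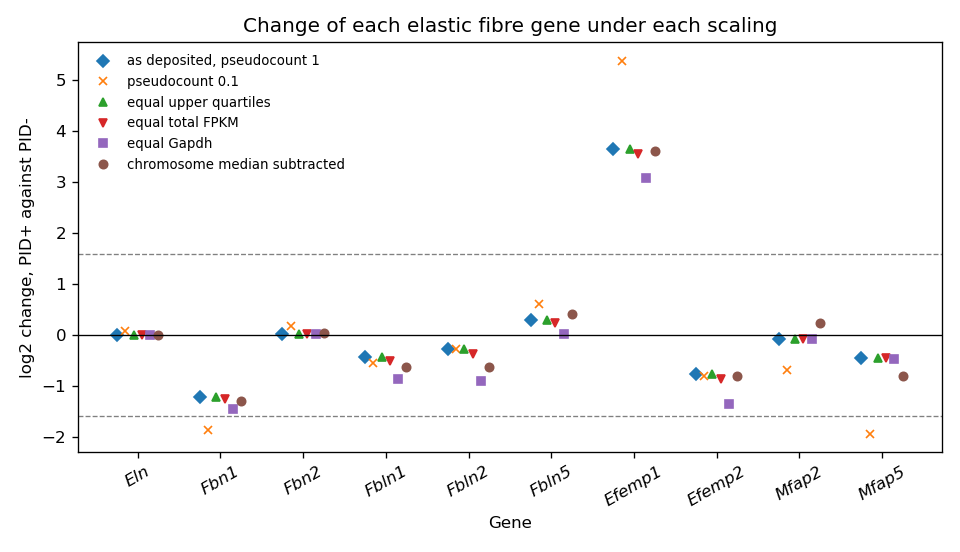
Log2 change between PID+ and PID- cells of each of the 10 elastic fibre genes as deposited and under 5 other settings, with dashed lines at 3-fold. Efemp1 stays above the upper line in each setting (3.07 to 5.37), and Fbn1 and Mfap5 pass the lower line with a pseudocount of 0.1 only.

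Another scaling shifts genes with ample RNA and leaves those near 0 almost in place. With FPKM scaled to equal Gapdh, the median log2 change of the 11480 genes whose mean FPKM was 1 or more was -0.57, and that of all genes -0.08. Efemp1 was then at 3.07, Efemp2 at -1.34, Fbn1 at -1.46, Fbln2 at -0.90 and Fbln5 at 0.02. Less that shift, Efemp1 lay at 3.64, Efemp2 at -0.78, Fbn1 at -0.89, Fbln2 at -0.33 and Fbln1 at -0.29, in the same direction as without the scaling. For genes with ample RNA, subtracting the shift largely undoes the scaling, so the kept direction is no separate check. With equal Gapdh alone, Mfap5 was at -0.48 and Mfap2 at -0.08, about as deposited (-0.46 and -0.08). Less the shift they lay at 0.09 and 0.49, against -0.45 and -0.08 less the median as deposited. For members near 0 FPKM, which the pseudocount holds close to a log2 change of 0, subtracting a median can set the sign. Mfap5 and Mfap2 were such cases here, and Mfap2 again when the median of its chromosome was subtracted (0.23 in place of -0.08).

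The genes around Efemp1 did not share its difference. The 3 nearest measured genes on each side, chosen after the value of Efemp1 was seen, had log2 changes from -0.99 to 0.34, with overlapping intervals for each. The 3 on the left were themselves low, with at most 1.74 FPKM (Gm6685 in PID- cells). Pnpt1, the next gene downstream, was at 25.5 FPKM in PID+ against 19.9 in PID- cells. The median log2 change of the 810 genes on chromosome 11 whose mean FPKM was 5 or more was 0.04.

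Genes that assemble, bind or degrade elastic fibres were followed in 7 lists with 54 genes. At least 3-fold higher in PID+ cells was 1 of 54, and 4 of 54 were at least 3-fold lower, beside 1.04% and 1.72% of all genes. An FPKM of 2 or more in one of the conditions, which the threshold requires, was reached by 29 of the 54, and among all genes in that range the shares were 2.08% and 3.42%. The 54 genes had a median log2 change of -0.07. The lower genes came from 4 different lists and each had intervals that lay apart, beside 0.542% of all genes apart and lower. With equal Gapdh, Mfap3l was no longer past the threshold and 8 genes were lower, the 4 described next (Lox, Mmp7, Itgb5 and Tgfb2) and Ltbp1, Timp1, Itga5 and Tgfb1. Under that scaling 3.01% of all genes were lower and 0.346% higher.

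Among 5 lysyl oxidases, the enzymes that cross-link elastin and collagen, Lox itself was lower, at 0.22 FPKM in PID+ cells (0 to 0.582), against 10.4 in PID- cells (3.15 to 17.7). The log2 change was -3.23. The most abundant enzyme of the list, Loxl4, had similar values of 11.0 in PID+ and 12.1 in PID- cells. By this threshold Lox was the single enzyme that differed, although Loxl2 passed it with a pseudocount of 0.1 in the higher direction (5.64 FPKM in PID+ and 1.76 in PID-), as Loxl1 did in the lower (0.181 and 1.19).

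TGF-β is stored on microfibrils by latent TGF-β binding proteins. As deposited, none of the 4 Ltbp genes reached 3-fold, and the most abundant, Ltbp3, was at 43.4 FPKM in PID+ against 52.0 in PID- cells. Of the 3 ligands, Tgfb2 was lower in PID+ cells, at 0.492 FPKM (0 to 1.18), against 19.9 in PID- cells (5.09 to 34.7), a log2 change of -3.81. Tgfb1, the most abundant ligand in both conditions, was at 18.7 FPKM in PID+ against 41.7 in PID- cells, short of 3-fold and with overlapping intervals. Tgfb3, named after its values were seen, had the higher value in PID+ cells, 4.75 FPKM against 1.74 in PID- cells, also short of 3-fold and with overlapping intervals.

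Among 12 receptors and receptor-complex genes of elastic fibre proteins, Itgb5, the partner of αv integrin in a receptor for RGD-containing matrix proteins, was lower. Its FPKM was 2.23 in PID+ cells (0 to 4.74), against 30.6 in PID- cells (7.67 to 53.5), a log2 change of -3.29. Itgb1, the most abundant gene of the list and the common β chain of matrix integrins, was at 490 FPKM in PID+ against 703 in PID- cells with overlapping intervals.

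Of 12 elastin-degrading proteases and Timp inhibitors, Mmp7 (matrilysin) was lower, at 234 FPKM in PID+ cells (105 to 363), against 993 in PID- cells (435 to 1551). Mmp7 is an epithelial protease that is known to cleave elastin and is a common product of intestinal tumors. It was the most abundant gene of this list in PID- cells, and in PID+ cells the lysosomal protease Ctsl was (329, against 380 in PID-). The classical elastases of leukocytes were near 0, with Elane listed at 0 in both conditions and Mmp12 at 0.0963 in PID+ and 0.0697 in PID- cells.

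The 15 other microfibril-associated genes held the single higher gene, Mfap3l, a relative of Mfap3, at 35.5 FPKM in PID+ cells (14.7 to 56.3), against 10.2 in PID- cells (3.52 to 16.8). Its log2 change of 1.71 lay just past the threshold of 1.58 and its intervals overlapped. Emilin2, an elastin microfibril interface protein named after its values were seen, was at 0.102 FPKM in PID+ cells, against 2.18 in PID- cells. Its log2 change of -1.53 was short of 3-fold, and reached it with a pseudocount of 0.1 (-3.49). The most abundant gene of this list, Adamtsl4, which binds fibrillin microfibrils, was at 37.7 FPKM in PID+ against 23.5 in PID- cells. The relatives of the fibulins were nearly silent: Hmcn1 and Hmcn2, the most abundant of 3, were at 0.164 and 0.205 FPKM in PID+ cells, against 0.396 and 0.192 in PID- cells.

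**Figure D3:**
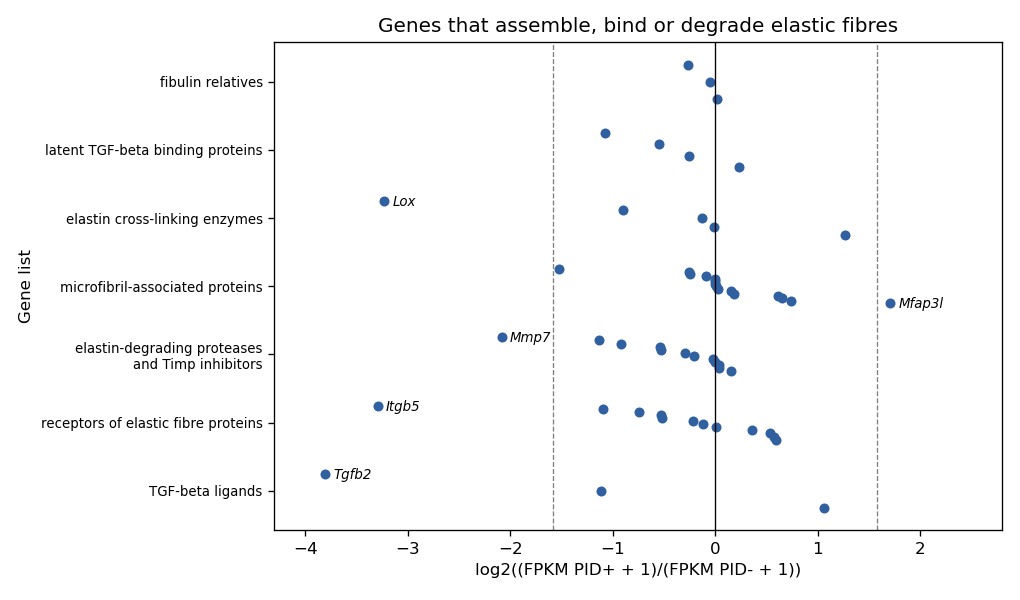
Log2 change between PID+ and PID- cells (horizontal axis) of 54 genes in 7 lists (rows), with dashed lines at 3-fold and names for the genes past them. Lox, Mmp7, Itgb5 and Tgfb2 lie past the lower line and Mfap3l just past the upper one.

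The summed level of fibroblast markers was lower in PID+ cells, as were the values of Fbn1, Lox and Tgfb2, while Efemp1 was higher. Together the 10 markers had 3.14 FPKM in PID+ cells, against 36.3 in PID- cells. Of these, 4 were at least 3-fold lower (Col1a1, Col1a2, Col3a1 and Dcn) and 0 were higher, beside 1.72% and 1.04% of all genes. Among genes that reach an FPKM of 2, as 5 of the 10 markers did, the shares were 3.42% and 2.08%. The intervals lay apart for Col1a2 alone, beside 0.542% of all genes apart and lower. The most abundant marker was Col1a1 in PID+ (2.32) and Col1a2 in PID- cells (11.9). Dcn and Thy1 were listed at 0 in PID+ cells, Lum at 0 in both, and Pdgfra (0.188 and 0.243) and Fap (0.0736 and 0.0918) were low and close in both. The paper describes a fibroblast-like appearance of the PID- tumor cells themselves, and bulk RNA cannot tell such cells from fibroblasts by these markers. The part of either in the lower values of Fbn1, Mfap5, Lox and Tgfb2 was not tested.

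Markers of 3 other cell types that such cultures could hold were also summed. The 8 smooth muscle markers had a sum of 6.47 FPKM in PID+ cells, against 16.4 in PID- cells, led by Acta2 (4.39 and 9.76). Actg2, a smooth muscle actin, was the 1 gene of this list past the 3-fold threshold, beside 1.72% of all genes lower. Its FPKM was 0.28 in PID+ cells, against 3.06 in PID- cells, and Tagln was at 1.02, against 2.93. Myh11 (0.0544 and 0.0345) and Des (0.119 and 0.032) were near 0 in both. Actg2 and Tagln were named after their values were seen. For the 8 endothelial markers the sum was 4.11 in PID+ cells, against 1.37 in PID- cells, led by Kdr (3.33 and 1.01), with Pecam1 at 0.096 and 0.0931 and Cldn5 listed at 0 in both. For the 8 immune markers it was 22.1 in PID+ cells, against 17.2 in PID- cells, nearly all from Cd68 (21.8 and 16.8), with Ptprc at 0.0264 and 0.0081 and Cd3e listed at 0 in both. The direction of Cd68 turned with equal Gapdh, from a log2 change of 0.35 to -0.24. That scaling lowers genes with ample RNA alike, and the median of genes with a mean FPKM of 1 or more was then -0.57. The part of these cell types in the values of the elastic fibre genes was not tested.

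Since Efemp1 and Efemp2 had similar FPKM in PID+ cells and differed so widely in PID- cells, the bases before their transcription starts are shown. RefSeq promoter windows (GRCm38.p6, 300 bases, 250 before to 50 after a start) were found for 7 of the 10 members, 12 windows in all, and not for Eln, Fbn2 and Mfap5. Some windows of Fbln1, Efemp2 and Mfap2 overlap each other, so the 12 are not separate promoters. CAGGTG or its reverse complement CACCTG, an E-box of the Snai and Zeb repressors, was in 0 of the 12 windows and in 20.2% of all 32851 windows. TGANTCA, a loose form of the AP-1 motif that reads the same on both strands, was in 1 of the 12 and in 7.81% of all. That 1 match lay in Efemp1, beginning at position -154 from the start, and is in capitals. It reads TGAATCA, with A in the middle, where the usual AP-1 site has C or G. A match describes letters only, and binding was not measured. Both stretches are on the plus strand, Efemp1 at chr11:28852955-28853203 and Efemp2 at chr19:5473696-5473945, ahead of the annotated exons. Efemp2 has 3 windows in the table, and the one shown is the most upstream. The other windows, which begin at 5474440 and 5474485, lie inside the annotated gene and are not shown.
Efemp1: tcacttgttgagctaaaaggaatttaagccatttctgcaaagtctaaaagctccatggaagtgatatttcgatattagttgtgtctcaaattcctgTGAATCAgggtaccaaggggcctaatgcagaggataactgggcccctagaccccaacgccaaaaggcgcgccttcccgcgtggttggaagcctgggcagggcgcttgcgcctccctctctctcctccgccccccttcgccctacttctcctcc
Efemp2: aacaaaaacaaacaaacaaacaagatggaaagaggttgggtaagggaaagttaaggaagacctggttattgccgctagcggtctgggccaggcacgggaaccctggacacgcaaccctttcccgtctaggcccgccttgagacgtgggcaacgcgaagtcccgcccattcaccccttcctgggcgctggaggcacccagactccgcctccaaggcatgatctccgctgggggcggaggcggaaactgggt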

How the data were processed

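Total RNA of tumor cells was sequenced after poly(A) selection. As the methods and the submitters' processing notes state, the authors trimmed adapters with CutAdapt, aligned the pooled reads of each condition with TopHat to GRCm38.p3, and deposited the FPKM that CuffDiff gave with its interval bounds. With 1 pooled value per condition, no p-value was calculated. The 7 genes with a status other than OK were left out, leaving 21959. Symbols matched 21734 of 21966 identifiers. Log2 changes used a pseudocount of 1, and a change of at least 3-fold was counted. A gene with an upper bound below its FPKM (28 values) was given no interval comparison.

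Reads were estimated from steps in low FPKM of genes with 1 transcript: with a length correction of 180 bases, 1 of 10 tried, 89.3% (PID+, 819 genes) and 91.0% (PID-, 763 genes) of values were within 0.1 of a whole number, against 20% without steps. The FPKM per read was 1.38 times higher in PID+ than in PID- cells, and the depth itself is unknown. Reads of genes with several transcripts were taken from the longest and are approximate. Positions came from Gencode M21 (GRCm38), the build of the authors.

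Named genes were the 10 members, pathway genes past 3-fold with an FPKM of at least 1, the most abundant gene of each list, and markers at or near 0. Further genes were picked with their values in view. The members and lists were chosen with earlier results of these data known. Calculations were tested on simulated data. For the fold threshold these held only genes with ample RNA in PID- cells, so genes low there, Efemp1 among them, were not covered. The tools were pandas 2.3.3, numpy 2.4.6 and matplotlib 3.10.9 under Python 3.11.15.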

Additional observations from a re-analysis of the deposited data

How the results depend on the processing

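Efemp1 was the 1 member at least 3-fold higher under each of the 6 alternatives: a pseudocount of 0.1, equal upper quartiles, equal Gapdh, equal total FPKM, the chromosome median subtracted, and a filter at a mean FPKM of 1. The members' median log2 change, -0.18, moved by over 0.1 with a pseudocount of 0.1 (-0.41), with the chromosome median subtracted (-0.31) and with the 5 members that pass the filter (-0.43, from fewer genes). A pseudocount of 0.1 also gave 2 members at least 3-fold lower in place of 0, 2 pathway genes higher in place of 1 (Loxl2 added) and 6 lower in place of 4 (Loxl1 and Emilin2 added). Equal Gapdh gave 0 pathway genes higher and 8 lower in place of 4. Over all genes, a pseudocount of 0.1 gave 621 higher in place of 229 and 795 lower in place of 377. Equal Gapdh gave 76 higher and 662 lower over all genes. It divides PID+ values by 1.54, which by construction lowers the change of genes with FPKM above 0 in PID+ cells. A smaller pseudocount likewise enlarges changes of genes with low FPKM. Of all genes past 3-fold, 37.8% were higher as deposited and 10.3% with equal Gapdh. The log2 change of Efemp1 ranged from 3.07 to 5.37, and the value with a pseudocount of 0.1 lay above the 4.80 that its intervals allow with a pseudocount of 1. No paired analysis was possible because the table holds 1 pooled value per condition, and for the same reason no replicate could be left out. The depth limits Eln, Fbn2 and Mfap2, each with under 14 estimated reads in either condition.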
